A study of Eriocheir sinensis with 2 samples.

Results

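Transposable element transcripts were selected from the *Eriocheir sinensis* Y-organ unigenes by words in the nr protein annotation. A unigene was taken when the name of its best hit, without the species, held a term such as reverse transcriptase, transposase, transposon, gag-pol, pol polyprotein, RNA-directed DNA polymerase, mariner, piggyBac or jockey. This gave 135 unigenes, which is 0.281% of the 47966 unigenes with at least 1 read and 1.01% of the 13314 unigenes with an nr annotation. Sample C1 came from crabs whose eyestalk was removed and sample C0 from untreated crabs, and both were taken after 48 h from crabs of 5 to 6 g kept in fresh water. Each group had 30 crabs whose Y-organs gave 1 RNA-seq library, so no difference between C1 and C0 has a replicate check. No sham operation is named for C0, and the effect of the ablation and that of the wound cannot be told apart. RNA was selected with oligo(dT) beads, and the uniquely mapped reads of C1 comprised 2201006 on annotated and 1549841 on unannotated unigenes, those of C0 2428700 on annotated and 1723769 on unannotated unigenes.

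Transposable elements are DNA segments that move within a genome. Retrotransposons move through an RNA copy that a reverse transcriptase turns back into DNA. The non-LTR elements among them carry an endonuclease that opens the target DNA, while the LTR elements carry Gag and Pol polyproteins and an integrase, as retroviruses do. DNA transposons are cut out and pasted by a transposase. Host cells hold these elements down with small RNA pathways built on Argonaute and Piwi proteins and with repressive chromatin, and some old transposases have become host genes. A read of an element can come from a transcript of the element itself or from a copy inside a transcript of another gene, and the counts do not tell these apart.

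By annotation names, non-LTR retrotransposons were the largest class of element transcripts in Y-organ. Element reads made up a larger share of the library from the eyestalk-ablated crabs. The 135 unigenes together had 7586 reads in C1 and 5848 in C0, which is 0.202% of the library in C1 and 0.141% in C0. The log2 ratio (C1/C0) of these sums was 0.52, with a 95% interval of 0.47 to 0.57 from counting error alone. A minimum of 10 reads, summed over C1 and C0, was met by 84 of the 135, of which 63 had a positive log2 ratio and 21 a negative one. The same minimum left 30436 unigenes in the whole data, of which 58.7% had a positive ratio. The median log2 ratio was 0.47 for the element unigenes and 0.15 for all unigenes. Annotated unigenes had a median of -0.07 and unannotated unigenes of 0.28. All levels are those of whole Y-organ RNA, in which more cells of 1 kind and more RNA per cell cannot be told apart.

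Log2 ratios depend on what stands for the library size. TMM factors, as edgeR computes them, lowered each by 0.17, which gave medians of 0.30 for the element unigenes, -0.02 for all unigenes and -0.24 for the annotated ones. The distances between these medians cannot change with the library size. The medians were also compared at like abundance. With 10 to 49 reads, 49 element unigenes had a median log2 ratio of 0.38, against 0.15 for all unigenes and -0.15 for the annotated unigenes in that range. From 50 to under 200 reads the medians were 0.56 for 22 element unigenes, 0.20 for all unigenes and -0.04 for the annotated ones. With 200 or more reads they were 0.64 for 13 element unigenes, 0.18 for all unigenes and 0.09 for the annotated ones. The unannotated unigenes were not split by these ranges. With at least 50 reads their median was 0.30, against 0.58 for the element unigenes. No test of the list as a whole was run, since its members are not replicates and many share a best-hit protein.

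**Figure D1:**
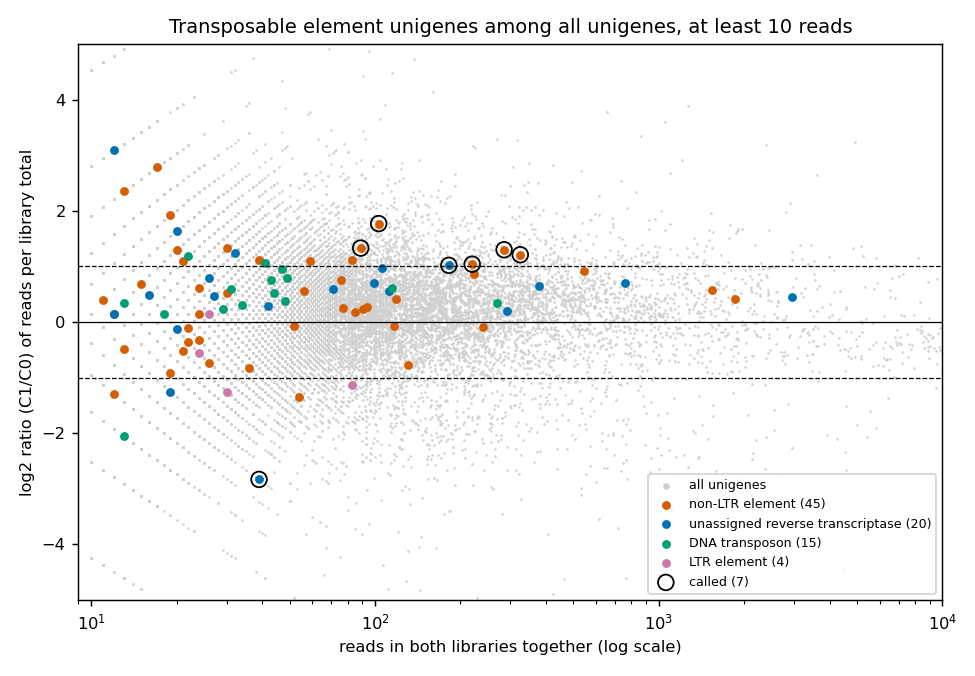
Log2 ratio (C1/C0) of each unigene with at least 10 reads against its reads in both libraries together (log axis), with all unigenes in grey, the 84 element unigenes coloured by class and the 7 differentially expressed ones ringed. Dashed lines mark log2 ratios of 1 and -1, unigenes outside the axes are not drawn, and of the 13 element unigenes with 200 or more reads 12 lie above 0.

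A differentially expressed unigene (DEU) was defined by an adjusted p of at most 0.001 in an exact binomial test and an absolute log2 ratio over 1. The test compares the reads of the 2 libraries and not the 2 conditions. Of the 135 element unigenes 7 were DEUs (5.19%), beside 4.03% of all unigenes and 5.14% of the annotated ones, from which every element unigene comes. Higher in C1 were 6 of them (4.44%), beside 2.32% of all and 2.16% of the annotated unigenes, and lower was 1 (0.741%), beside 1.70% and 2.98%. The share of DEUs was thus near that of the annotated unigenes. With TMM factors 3 were higher and 1 was lower, while the DEUs among all unigenes, 1115 higher and 816 lower, became 730 higher and 1053 lower. When edgeR's exact test was run as if replicates varied with a coefficient of variation of 0.2, no element unigene was called, beside 295 of all unigenes. A further 7 element unigenes had an adjusted p of at most 0.001 in the exact test with a log2 ratio under 1, and all 7 were higher in C1. No share of all unigenes was set beside this count. It depends on the library size: with TMM factors the adjusted p of the exact test was 0.00443 for Unigene9404_A0A and 0.0197 for CL1705.Contig1_A0A. The DEU with the fewest reads in the whole data had 16, and fewer reads were found for 61 of the element unigenes (45.2%), against 48.7% of all unigenes and 43.6% of the annotated ones.

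The non-LTR class holds 61 unigenes whose annotation names an endonuclease-reverse transcriptase, the enzyme with which these elements copy themselves into the genome, or an X-element. They had 4054 reads in C1 and 3025 in C0, a log2 ratio of the sums of 0.57 (0.50 to 0.64). Of the 45 with at least 10 reads, 31 had a positive and 14 a negative log2 ratio, with a median of 0.41 and a range of -1.34 to 2.78. This class held 5 of the 6 DEUs that were higher in C1, which is 8.20% of its unigenes, beside 2.32% of all and 2.16% of the annotated unigenes. It also held 23 of the 35 element unigenes with at least 50 reads, and each of the 6 DEUs had at least 89 reads. The part of read depth in this count was not tested. The class with the name of a reverse transcriptase alone has 39 unigenes, with 2980 reads in C1 and 2323 in C0. Among them are 4 unigenes annotated as endonuclease and reverse transcriptase-like protein, which the class words did not place with the non-LTR elements although the name is of the same kind. When these and 1 similar name were added, the non-LTR class had 66 unigenes with 6155 reads in C1 and 4674 in C0, and a median log2 ratio of 0.43.

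The most abundant element transcript was CL14.Contig2_A0A (1897 bp), annotated as the endonuclease and reverse transcriptase-like protein of *Bombyx mori*. It had 1624 reads in C1 and 1318 in C0, an RPKM of 228 in C1 and 167 in C0, and ranked 228 among the unigenes of C1 and 289 among those of C0 by reads. It held 21.4% of all element reads in C1 and 22.5% in C0. Its log2 ratio was 0.45 (0.34 to 0.55), under the threshold. CL59.Contig1_A0A (750 bp), with the same best-hit protein, had 451 reads in C1 and 307 in C0, with a log2 ratio of 0.70. Both unigenes were higher in C1, and neither was a DEU.

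Long non-LTR transcripts came next. Unigene9404_A0A is the longest of the element unigenes (3325 bp) and is covered over 99.79% of its length in C1 and 99.64% in C0. It had 1016 reads in C1 and 845 in C0, an RPKM of 81.5 in C1 and 61.2 in C0, and a log2 ratio of 0.41 (0.28 to 0.54). CL46.Contig1_A0A (2983 bp) had 887 reads in C1 and 657 in C0, with a log2 ratio of 0.58 (0.43 to 0.73). Together with CL14.Contig2_A0A these unigenes carried 46.5% of the element reads in C1 and 48.2% in C0. Their intervals lie above 0 and below the log2 threshold. The ratio of the list did not rest on them, since the other 132 unigenes had 4059 reads in C1 and 3028 in C0, a log2 ratio of the sums of 0.57.

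The largest of the higher calls was Unigene5810_A0A (831 bp), annotated as similar to a sea urchin endonuclease-reverse transcriptase. It had 78 reads in C1 and 25 in C0, an RPKM of 25.0 in C1 and 7.24 in C0, and a log2 ratio of 1.77 (1.14 to 2.43, adjusted p = 2.36e-07, exact binomial test). CL1318.Contig1_A0A (805 bp) had 197 reads in C1 and 88 in C0, and an RPKM of 65.2 in C1 and 26.3 in C0. Its log2 ratio was 1.30 (adjusted p = 9.28e-12, exact binomial test). Unigene45181_A0A (453 bp), with an endonuclease-reverse transcriptase of *B. mori* as its best hit, had 220 reads in C1 and 105 in C0. Its log2 ratio was 1.21 (adjusted p = 1.16e-11, exact binomial test). These 3 unigenes stayed DEUs under TMM factors, the median ratio and the clean reads, and the lowest log2 ratio among them was the 1.04 of Unigene45181_A0A under TMM factors.

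The other 3 higher calls lay close to a threshold. CL198.Contig1_A0A (1293 bp) had 143 reads in C1 and 77 in C0, with a log2 ratio of 1.04 that was 0.87 with TMM factors. Unigene54123_A0A (1055 bp, reverse transcriptase) had 118 reads in C1 and 64 in C0, with a log2 ratio of 1.02 that was 0.86 with TMM factors. Unigene40646_A0A (722 bp) had 62 reads in C1 and 27 in C0 and a log2 ratio of 1.33, and its adjusted p of 0.000504 in the exact test became 0.00418 with TMM factors. Each of these unigenes was no DEU under TMM factors. Unigene19477_A0A (582 bp) missed the log2 threshold from the other side, with 345 reads in C1 and 202 in C0 and a log2 ratio of 0.92 (adjusted p = 1.39e-11, exact binomial test).

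Unigene40073_A0A (1497 bp), annotated as a reverse transcriptase, was the only element DEU that was lower in C1. It had 4 reads in C1 and 35 in C0, an RPKM of 0.712 in C1 and 5.63 in C0, and a log2 ratio of -2.83 (-4.42 to -1.55, adjusted p = 2.48e-05, exact binomial test). Reads covered 13.09% of its length in C1 and 63.19% in C0. It remained a DEU with TMM factors and at a log2 threshold of 2. Unigene45558_A0A (1129 bp, endonuclease/reverse transcriptase) had 14 reads in C1 and 40 in C0, a log2 ratio of -1.34 that did not pass the test (adjusted p = 0.017, exact binomial test). Also with a log2 ratio beyond 1 and at least 50 reads, but without a call, were Unigene24970_A0A (55 reads in C1 and 28 in C0) and Unigene25093_A0A (39 reads in C1 and 20 in C0).

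**Figure D2:**
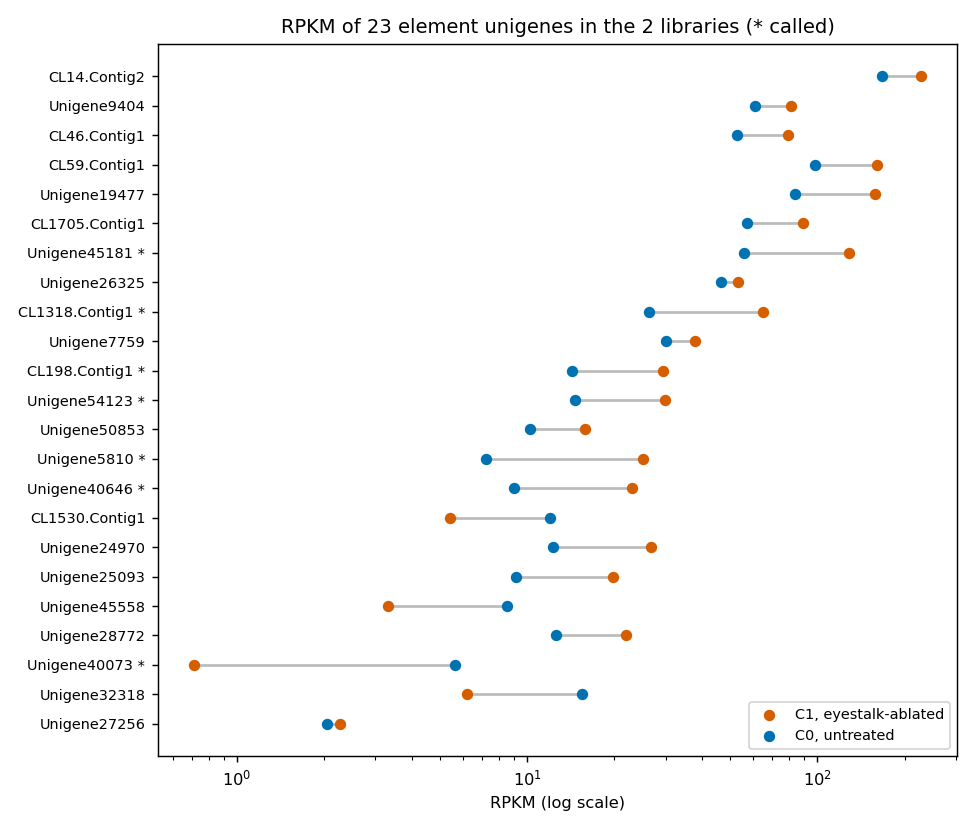
RPKM (log axis) of the 23 element unigenes that the naming rule selected, ordered from the most reads at the top, with C1 in orange and C0 in blue and a star at the 7 DEUs. The C1 point lies to the right of C0 for 19 of them, and to the left for Unigene40073, CL1530.Contig1, Unigene45558 and Unigene32318.

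DNA transposons made up 26 unigenes with few reads, 489 in C1 and 379 in C0, and a log2 ratio of the sums of 0.51 (0.32 to 0.71). Of the 15 with at least 10 reads, 14 (93.3%) had a positive log2 ratio, and the median was 0.53. Positive ratios were found for 58.7% of all unigenes, 46.3% of the annotated and 64.0% of the unannotated ones. With TMM factors 13 of them were positive. None was a DEU, so the shared direction is made of single values that did not pass the test. The one with the most reads was Unigene7759_A0A (1003 bp), similar to Tigger transposable element-derived protein 2, a gene of a family that descends from pogo-like transposases. It had 143 reads in C1 and 125 in C0, with a log2 ratio of 0.34 (adjusted p = 0.269, exact binomial test). Unigene50853_A0A (1129 bp, a Tigger 6-like protein) had 67 reads in C1 and 48 in C0. Unigene28772_A0A (364 bp) is named after Buster3, a transposase-derived protein of the hAT superfamily, and had 30 reads in C1 and 19 in C0.

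The Tigger names covered 5 unigenes with 242 reads in C1 and 191 in C0. The piggyBac names, which include the domesticated PiggyBac transposable element-derived protein 4, covered 5 unigenes with 38 reads in C1 and 27 in C0. The 3 unigenes named after the Tc3 transposase, first known from nematodes, had 12 reads in C1 and 8 in C0. The 11 transposases without a family name had 165 reads in C1 and 123 in C0, and the 7 of them with at least 10 reads had log2 ratios of 0.24 to 1.07. The 2 unigenes named after Buster3 had 32 reads in C1 and 30 in C0, with log2 ratios of -2.05 and 0.79. The first of these is the only negative one among the 15 DNA transposons with at least 10 reads. Every 1 of these groups had more reads in C1. The intervals for piggyBac (-0.06 to 1.34), Tc3 (-0.52 to 1.98) and Buster3 (-0.47 to 0.95) include 0.

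Few reads fell on unigenes with the name of an LTR element, and these did not share the direction of the other classes. The 9 unigenes had 63 reads in C1 and 121 in C0, a log2 ratio of the sums of -0.79 (-1.23 to -0.36). The class may be incomplete. A further 34 unigenes (879 reads in C1 and 674 in C0) are named as a reverse transcriptase without an endonuclease, which does not tell LTR from non-LTR elements. CL1530.Contig1_A0A (1185 bp), annotated as the Gag-Pol polyprotein of a Ty3-I transposon, had 24 reads in C1 and 59 in C0. Its log2 ratio of -1.13 (-1.83 to -0.47) did not pass the test (adjusted p = 0.0104, exact binomial test). Unigene32318_A0A (343 bp, gag-pol polyprotein) had 8 reads in C1 and 22 in C0, and Unigene27256_A0A (1525 bp, pol polyprotein) had 13 in each library, a log2 ratio of 0.15 that was -0.02 with TMM factors. The 3 unigenes with a Gag-Pol name and at least 10 reads had log2 ratios of -1.26 to -0.56. None of the LTR unigenes was a DEU. Without CL1530.Contig1_A0A the class had 39 reads in C1 and 62 in C0, a log2 ratio of the sums of -0.52 (-1.10 to 0.05).

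**Figure D3:**
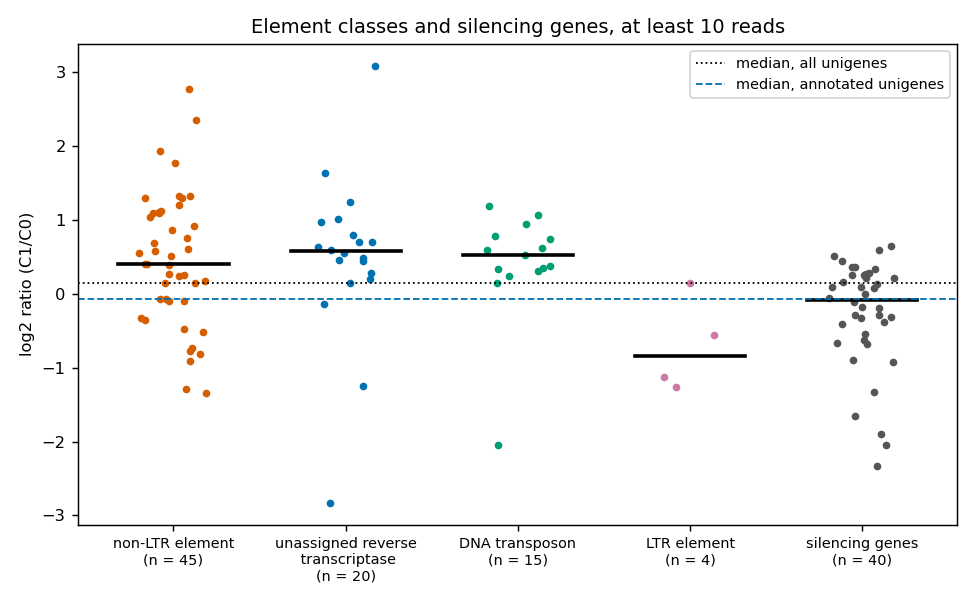
Log2 ratio (C1/C0) of each unigene with at least 10 reads by element class and for the silencing genes, with black bars at the class medians (0.41, 0.57, 0.53, -0.85 and -0.09 from left to right). The dotted line is the median of all unigenes (0.15) and the dashed line that of the annotated unigenes (-0.07).

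Many of the element unigenes share a best-hit protein with others, while their sequences were not compared. The 135 unigenes have 79 different best-hit proteins, and 80 of the unigenes share 24 of these proteins. They may be fragments of 1 transcript, copies of 1 family or alleles, so they cannot be taken as independent measurements. The largest such group has 15 unigenes whose best hit is a reverse transcriptase of the shrimp *Penaeus monodon*. It held 583 reads in C1 and 475 in C0. Its members did not move together. CL1705.Contig1_A0A (221 reads in C1 and 157 in C0), Unigene26325_A0A (148 in C1 and 143 in C0) and the DEU Unigene54123_A0A had positive log2 ratios, while Unigene40073_A0A, the lower DEU, is of the same group. The log2 ratios of its 8 unigenes with at least 10 reads ran from -2.83 to 1.02.

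Other groups differed in this. The 3 unigenes that share the best hit of Unigene9404_A0A, itself included, had 1069 reads in C1 and 944 in C0 and log2 ratios of -0.78 to 0.41, of which 1 was positive and 2 were negative. The pair with the best hit of Unigene45558_A0A had 26 reads in C1 and 52 in C0, with log2 ratios of -1.34 and 0.15. The 6 unigenes that share 1 sea urchin endonuclease-reverse transcriptase with Unigene19477_A0A had 552 reads in C1 and 338 in C0, and the 4 of them with at least 10 reads had log2 ratios of 0.27 to 1.30. The 3 unigenes that share a best hit with CL1318.Contig1_A0A, itself included, had 254 reads in C1 and 118 in C0, with log2 ratios of 1.11 and 1.30 for those with at least 10 reads. For the 3 unigenes named after HmRTE-e01, an RTE element of the butterfly *Heliconius melpomene*, the log2 ratios were 0.41 to 1.10. When only the unigene with the most reads was kept for each protein, the median log2 ratio of the list was 0.41, 5 unigenes were DEUs higher in C1 and none was lower.

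The best hits came from 33 species. The sea urchin *Strongylocentrotus purpuratus* gave 42 of them and *B. mori* 22, while crustaceans gave 20. The unigenes with a crustacean best hit had 689 reads in C1 and 539 in C0, a log2 ratio of the sums of 0.50 (0.34 to 0.66). Those with a sea urchin best hit had 3407 reads in C1 and 2585 in C0, a log2 ratio of 0.55 (0.47 to 0.62), so the direction was found under both. None of the best hits was a ciliate protein. A GO term was given for 2 of the 135 unigenes, in both cases nucleic acid binding. No unigene of the whole table carried a GO term for reverse transcriptase or transposase activity. A GO term for RNA-dependent DNA replication was carried by 3 unigenes outside the list.

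Most element unigenes were weakly expressed. The median was 20.0 reads in both libraries together and an RPKM of 6.50 in C1 and 5.01 in C0, against an RPKM of 6.33 in C1 and 5.85 in C0 for all unigenes. An RPKM of at least 10 was reached by 52 element unigenes in C1 and 47 in C0, and one of at least 50 by 10 in C1 and 7 in C0. Reads from both libraries fell on 121 of them. Reads in C1 alone were found for 8, with at most 6 reads, and reads in C0 alone for 6, with at most 2 reads. Where no read was found, the true share may still reach 8.00e-05% of the library in C1 or 7.22e-05% in C0 (3 counts of the total), so absence from 1 library was not detectable at this depth.

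The reads did not cover all element unigenes evenly, and for some of those with many reads the gaps were found in both libraries. From the read number, the unigene length and a read length of 49 bp, evenly placed reads would cover at least 90% of the length in both libraries for 31 element unigenes. Of these, 9 (29.0%) were covered over less than 80% in both. Among the other annotated unigenes this applied to 165 of 3362 (4.91%). CL46.Contig1_A0A, with 887 reads in C1 and 657 in C0, was covered over 66.78% in C1 and 63.59% in C0. CL1705.Contig1_A0A was covered over 60.88% in C1 and 60.73% in C0. The lowest value in C1 was that of CL2.Contig4_A0A (1946 bp, named after its values were seen), with 45.99% in C1 and 47.02% in C0 at 110 reads in C1 and 130 in C0. Over the 31 unigenes, the coverage in C1 and that in C0 differed by a median of 3.00 percentage points, and the median coverage was 92.5% in C1 and 86.7% in C0. Unigenes with few reads in 1 library, such as Unigene40073_A0A, differed far more. Only uniquely mapped reads were counted, and reads that fit several copies were therefore lost. Their part in the gaps was not tested. The counts of the element unigenes describe the unique parts of these sequences and not the whole output of an element family.

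**Figure D4:**
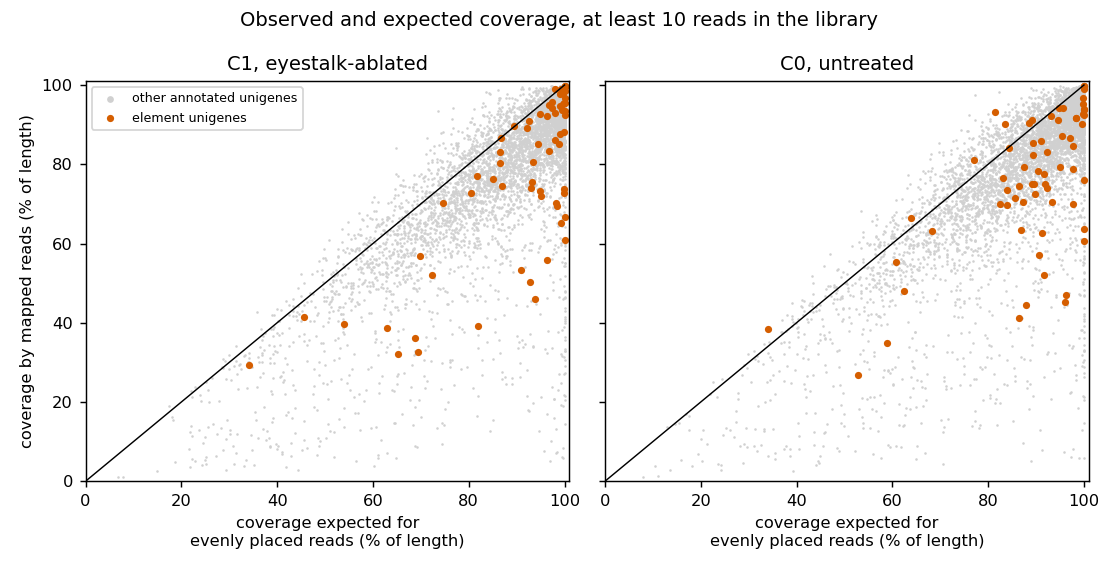
Percent of the unigene length covered by reads against the percent expected for the same number of evenly placed reads, in C1 (left) and C0 (right), for unigenes with at least 10 reads in that library. Element unigenes are orange, other annotated unigenes are grey and the line marks equality. Of the 31 element unigenes with at least 90% expected in both libraries, 9 lie under 80% in both panels.

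Genes of the small RNA pathways, RNA editing and repressive chromatin, here called silencing genes, were compared from a list of annotation words. Whether they restrain transposable elements in Y-organ was not tested. The list has 52 unigenes, with 1720 reads in C1 and 2269 in C0, a log2 ratio of the sums of -0.25 (-0.34 to -0.16). Of the 40 with at least 10 reads, 19 had a positive and 21 a negative log2 ratio, with a median of -0.09, which is close to that of the annotated unigenes. DEUs were 3 of the 52 (5.77%), beside 4.03% of all unigenes and 5.14% of the annotated ones, so the share was near that of the annotated unigenes. All 3 were lower in C1, beside 1.70% of all unigenes and 2.98% of the annotated ones. With TMM factors 5 were DEUs.

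The 3 lower calls belong to effector proteins. Unigene45976_A0A (675 bp) is annotated as argonaute 2, the protein that cuts target RNA under the guidance of small interfering RNAs in arthropods. It had an RPKM of 22.1 in C1 and 112 in C0, covered over 94.67% of its length in C1 and 96.30% in C0, and a log2 ratio of -2.33 (-2.75 to -1.94, adjusted p = 2.14e-37, exact binomial test). When a coefficient of variation of 0.2 was assumed, it was the only DEU left in this list. Unigene44593_A0A (263 bp), also annotated as argonaute 2, had 11 reads in C1 and 47 in C0, with a log2 ratio of -1.90. Whether both are fragments of the same transcript was not tested. Unigene39694_A0A (813 bp) is similar to MOV10, an RNA helicase that limits retrotransposons in mammals, and had 27 reads in C1 and 76 in C0, with a log2 ratio of -1.33 (adjusted p = 0.000226, exact binomial test). A further argonaute 2 unigene, Unigene7284_A0A (360 bp, named after its values were seen), had 41 reads in C1 and 39 in C0, with a log2 ratio of 0.22. All 4 argonaute 2 unigenes had log2 ratios of -2.33 to 0.22, of which 3 were negative.

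None of the other silencing unigenes was a DEU. Dicer 2, the nuclease that makes small interfering RNAs, was represented by 5 unigenes with 416 reads in C1 and 402 in C0 and log2 ratios of 0.08 to 0.45. Those with the most reads were Unigene51097_A0A (168 reads in C1 and 166 in C0), Unigene14505_A0A (96 in C1 and 97 in C0), Unigene55507_A0A (81 in C1 and 71 in C0) and Unigene29924_A0A (45 in C1 and 47 in C0). Of these, all but Unigene55507_A0A turned negative with TMM factors (-0.08 to -0.01). The RNA editing enzyme Adar (Unigene45158_A0A) had the most reads of the list, 456 in C1 and 433 in C0, with a log2 ratio of 0.22 (0.03 to 0.41). Argonaute 1, the partner of microRNAs, had 33 reads in C1 and 57 in C0 on Unigene14075_A0A, a log2 ratio of -0.63 (-1.26 to -0.03). The 3 argonaute 1 unigenes with at least 10 reads ran from -2.05 to 0.10. The Tudor staphylococcal nuclease unigene Unigene25445_A0A had 80 reads in C1 and 129 in C0, with a log2 ratio of -0.54, the lowest of 3 such unigenes (-0.54 to 0.00). The tudor domain-containing protein 7 unigenes Unigene40385_A0A and Unigene56337_A0A had log2 ratios of 0.10 and 0.29, and the first of these was -0.07 with TMM factors. SID1 transmembrane family member 1 (Unigene50186_A0A), of a family that carries double-stranded RNA into cells in nematodes, had 48 reads in C1 and 100 in C0. Its log2 ratio of -0.90 was under the threshold, but with TMM factors (-1.07) it became a DEU. The 12 unigenes with a SID1 or SID-1-like name had 197 reads in C1 and 333 in C0. Of the 11 with at least 10 reads, 9 had a negative and 2 a positive log2 ratio (-1.65 to 0.51), and none was a DEU. A Piwi-like protein, the class that silences elements in the germ line of animals, was the best hit of Unigene23892_A0A (named after its values were seen) with 1 read in C1 and 0 in C0.

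**Figure D5:**
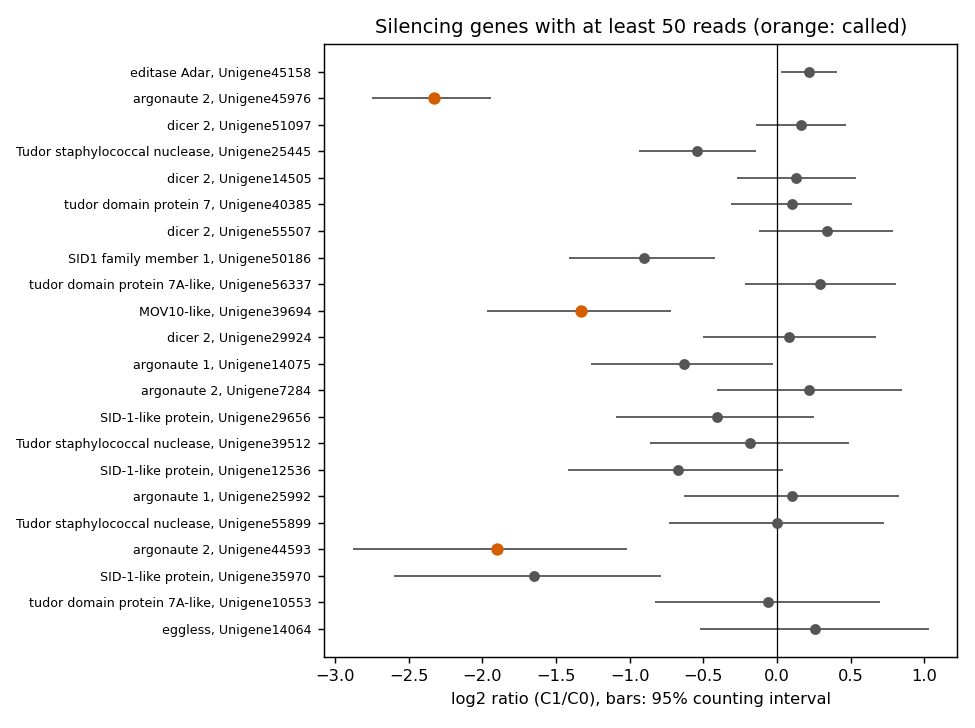
Log2 ratio (C1/C0) of the 22 silencing unigenes with at least 50 reads, ordered from the most reads at the top, with 95% counting intervals as bars and the 3 DEUs in orange. The 3 DEUs and 1 SID-1-like unigene lie below -1, and the dicer 2 unigenes lie near 0.

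Tissue markers differed between the libraries to various extents. The 5 unigenes named after ecdysteroid synthesis genes held 6.96% of the reads in C1 and 6.71% in C0, nearly all on 1 of them (log2 ratio 0.05). The other 4 had 2118 reads in C1 and 1290 in C0, a log2 ratio of the sums of 0.86. Of the 5, 1 (20.0%) was a DEU, higher in C1, beside 2.32% of all unigenes. These words do not take in the whole pathway. The paper reports a DEU lower in C1 for the first step from cholesterol and DEUs higher in C1 for later steps. Log2 ratios of the summed reads were -0.55 for 34 muscle unigenes, 0.38 for 16 hemocyte unigenes, 1.01 for 21 epidermis and cuticle unigenes (3888 of their 4108 reads in C1 and 1939 of 2263 in C0 fell on 1 of them), and 0.02 for 12 hepatopancreas unigenes. Of the 15 hemocyte unigenes with at least 10 reads, however, 10 had a negative log2 ratio, the median was -0.46 and both DEUs were lower in C1. In this list 1 unigene held 8025 of the 16565 reads in C1 and 6454 of 14123 in C0, and the sums of the others had a log2 ratio of 0.30. Without their most abundant unigene, the epidermis and cuticle unigenes had 220 reads in C1 and 324 in C0, a log2 ratio of the sums of -0.41. The 186 unigenes with a ciliate best hit had 0.275% of the reads in C1 and 0.784% in C0, a log2 ratio of -1.51. Of these unigenes none belongs to the element list. The part of these shifts in the element reads was not tested.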

How the data were processed

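Y-organ RNA from 30 crabs per group was sequenced by the authors as 1 library each. SOAPaligner/soap2 (version not given in the sources used here) placed the reads on an earlier transcriptome assembly, and the authors deposited, per unigene, the count of uniquely mapped reads, the RPKM made from it and the percent of its length that reads cover. The deposited table that sets both libraries side by side also holds the authors' log2 ratio, p-value and FDR, which were not used here. Columns without a matching sample numbered 0. Genome coordinates and unigene sequences were not used here, and 0 of the 135 unigene identifiers were found in a RefSeq gene table of *E. sinensis* (assembly ASM2467909v1).

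Counts were analysed in Python 3.11.15 with numpy 2.4.6, scipy 1.17.1 and pandas 2.3.3. The C1 reads of each unigene were tested against the C1 part of all reads (exact binomial test, two-sided), with Benjamini-Hochberg adjustment across all unigenes. Log2 ratios had 0.5 read added in each library, and ratios of sums had none. Intervals are 95% Wilson intervals of the C1 part and hold for counting error alone, since reads copied by PCR do not stand for separate molecules. The script was tested on simulated data. Alternatives used other library sizes (TMM of edgeR 4.0.16 in R 4.3.3, the median ratio, the clean reads), Fisher's exact test, edgeR's exact test with an assumed coefficient of variation, minimums of reads and other versions of the list. Figures were drawn with matplotlib 3.10.9.

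The members, classes and gene lists were chosen with earlier results of these data known. Element unigenes were named when they were DEUs, among the 10 with the most reads, among the 3 with the most reads of a class, the longest, or beyond a log2 ratio of 1 with at least 50 reads. Of the silencing list the 12 with the most reads and every DEU were named. The ecdysteroid marker words were also matched to the spelling cytochrome P450 with the same number.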

Additional observations from a re-analysis of the deposited data

How the results depend on the processing

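The number of element DEUs depended on the library size and on the assumed spread. It was 7 in the main analysis, 4 with TMM factors, with the median ratio and with the clean reads (3 higher and 1 lower each), 1 with a log2 threshold of 2 (0 higher), and 0 in each direction when the coefficient of variation was taken as 0.2 or as 0.4. Over all unigenes, 1931 DEUs became 678 with the log2 threshold of 2, and 295 and 8 with these coefficients. With 1 unigene per best-hit protein, an alternative chosen after the data were seen, the lower DEUs numbered 0. The median log2 ratio of 0.47 became 0.30 with TMM factors, 0.33 with the median ratio, 0.40 with the clean reads, 0.58 with at least 50 reads and 0.41 with 1 unigene per protein. The log2 ratio of the summed reads, 0.52, became 0.35, 0.38 and 0.45 with these library sizes in the same order, and 0.46 without the DEUs. Silencing DEUs numbered 5 with TMM factors and 1 with a coefficient of variation of 0.2. The list held 0 unigenes with telomerase or integrase core in the name and 0 with a ciliate best hit, so leaving these out could not change a value. For 36 named unigenes, 108 single results were computed with TMM factors, with the clean reads and with a coefficient of variation of 0.2. The last leaves the log2 ratio as it is, so no sign could turn there. Of the 108, 87 kept their direction and call, 15 lost the call and 1 gained it. Unigenes that were never DEUs count among the 87, and only the 7 element and 3 silencing DEUs had a call to lose. In 5 the sign turned, all with TMM factors: Unigene27256_A0A (-0.02), Unigene51097_A0A (-0.01), Unigene14505_A0A (-0.04), Unigene40385_A0A (-0.07) and Unigene29924_A0A (-0.08). With 1 library per group, no paired analysis was possible because the groups share fewer than 2 replicates, and no library could be left out.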
